A study of Homo sapiens with 30 samples.

Results

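U87 (U87-MG) and U251 (U251-MG) are established human glioblastoma cell lines, and the comparison described here sets their cells side by side without interferon-γ (IFN-γ). It used 6 of the 30 libraries of the series, the 3 Untreated libraries of U87 and the 3 Untreated libraries of U251. A gene was compared if it was listed in the tables of both lines and had a mean of at least 0.5 TPM (a transcript level corrected for length and scaled to the same total in every library) over these 6 libraries, which held for 22045 of 61471 genes. Both lines carry the label wild type, were grown in the same serum-containing medium, received no agent and were collected at day 3 according to the labels, whereas the methods place the Untreated flasks at the start of the time course. Each line stands for 1 tumor, and the identity of the cultures rests on their supplier, as no DNA profile of them was made once delivered and mix-ups of these lines are known. The treated groups, used only at the end, had received IFN-γ for 3 days (D3), 14 days (D14) or 28 days (D28), or for 14 days followed by 14 days without it (D28WO), and the labels and the methods differ on the dose.

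Glioblastoma cells occupy states that resemble neural and glial precursors, astrocytes, or mesenchymal cells rich in matrix and wound-response genes. SOX2, OLIG2 and PDGFRA are typical of the precursor-like and proneural states, GFAP and S100B of astrocytes, and CD44, CHI3L1 and FN1 of the mesenchymal state. The study used U87 as a mesenchymal-like and U251 as a proneural-like model, so the comparison addresses how far apart the starting points of the lines lay before IFN-γ was added.

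The tables of the lines were deposited and normalized separately, so line and table cannot be told apart, and no test was run between them. A difference is given as the mean of log2(TPM + 1) in U87 minus that in U251, and a gene is called past the limit when all 3 libraries of a line lay above all 3 of the other and the means differed by at least 1. Each library summed to the same total, the sequencing depth behind a value is unknown, and a gene at 0 is only listed at 0. Pearson correlations over the compared genes were 0.966 to 0.972 within U87, 0.968 to 0.971 within U251 and 0.817 to 0.837 between the lines. The replicates were separate cultures according to the methods. In bulk RNA, fewer cells of a kind and less RNA per cell cannot be told apart.

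Of the 22045 genes, 2310 (10.5%) were higher in U87 past the limit and 3791 (17.2%) were higher in U251. Without the size criterion the libraries of the lines did not overlap for 60.3% of genes. The median difference over all genes was -0.13, and when the 6 libraries were brought to the same distribution (quantile normalization) it was 0.01 and the counts were 2884 and 3024, so that 48.8% of the genes past the limit were higher in U87 instead of 37.9%. List medians are therefore given relative to the median of all genes, unless called differences. The filter lets a gene pass through the line in which it is high, and the mean of the other line was under 0.5 TPM for 928 genes higher in U87 and 1178 higher in U251. A difference of at least 3 was reached by 516 genes toward U87 and 660 toward U251.

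**Figure D1:**
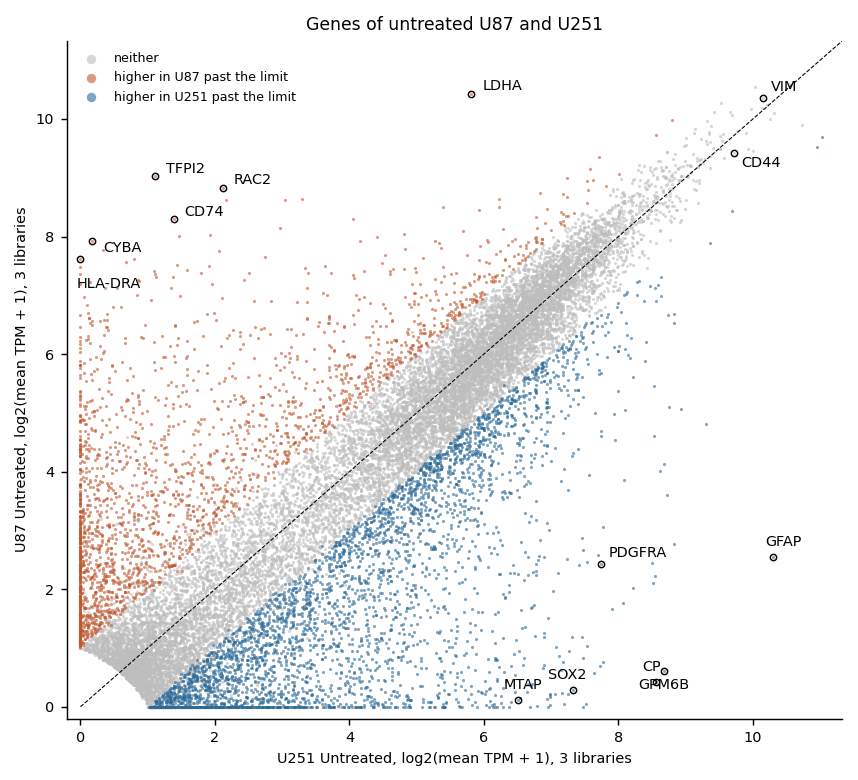
Each point is a gene, placed by the log2 of its mean TPM + 1 over the 3 Untreated libraries of U251 (horizontal) and of U87 (vertical), with genes past the limit in orange (higher in U87) or blue (higher in U251) and the dashed line marking equal levels. TFPI2, CYBA and HLA-DRA lie at the upper left, GFAP, CP and GPM6B at the lower right, and VIM and CD44 near the line.

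The largest differences toward U87 were in TFPI2, a secreted inhibitor of serine proteases, and CYBA, a subunit of the NADPH oxidase. TFPI2 stood at 533, 450 and 577 TPM in the libraries of U87 and at 2.05, 0.452 and 0.973 in U251, a difference of 7.97. CYBA had 242 ± 9.30 TPM in U87 (SD, n = 3) and 0.128 ± 0.125 in U251. The growth factor HGF, the ligand of MET, had 135, 151 and 148 TPM in U87 and was listed at 0 in every library of U251. The 15 largest differences toward U87 also held the BMP antagonist GREM1 (124 against 0.0354 TPM), the EGFR ligand EREG (139 against 0.293), the small GTPase RAC2 (455 against 3.34), the myosin light chain MYL9 (148 against 0.102), the decoy receptor TNFRSF10D (113 against 0.0653), PDLIM1, CAVIN3 and TMPRSS15, and 4 genes of class II antigen presentation, HLA-DRA, HLA-DRB1, HLA-DRB5 and CD74. The 15 were drawn from genes past the limit, so by that rule their libraries do not overlap.

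Toward U251 the largest differences were in CP, the copper-carrying oxidase ceruloplasmin, at 374, 393 and 367 TPM against 0.0971, 0.933 and 0 in U87, and in GPM6B, a membrane protein of glia and neurons, at 408 ± 6.55 against 0.518 ± 0.333. GFAP, the intermediate filament of astrocytes, stood at 1309, 1246 and 1219 TPM in U251 and at 5.30, 6.90 and 2.33 in U87. These values place GFAP among the most abundant transcripts of U251 and leave it low in every library of U87. The cannabinoid receptor CNR1 (183 against 0.0300 TPM), the membrane scaffold EPB41L3 (176, listed at 0 in U87), the WNT inhibitor APCDD1 (123, listed at 0 in U87), the precursor factor SOX2 (159 against 0.219), the protease inhibitors A2M (126 against 0.0211) and SERPINA3 (126 against 0.145), and GALNT17, PIPOX, GLDN, ST6GALNAC2, PCDH20 and PLEKHG1 completed the 15. Among protein-coding genes, 20 had at least 100 TPM in U87 and under 1 in U251, and 28 showed the opposite.

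Class II molecules present peptides on the cell surface and are under the control of the coactivator CIITA, which is itself induced by IFN-γ in most cells other than professional antigen-presenting cells. In untreated U87 the chains of class II molecules were present, and in untreated U251 they were at or near 0. HLA-DRA (chromosome 6, 32439887 to 32445046, GRCh38) had 185, 183 and 219 TPM in U87 and was listed at 0 in all 3 libraries of U251. CIITA had 50.8, 47.1 and 32.9 TPM in U87 and 2.65, 1.76 and 1.21 in U251, a difference of 3.96. HLA-DRB1 stood at 217 ± 12.5 against 0.258 ± 0.280 TPM, HLA-DPA1 at 260 ± 36.2 against 2.81 ± 0.724, HLA-DQA1 at 33.7 ± 3.11 against 0.0558 ± 0.0485, and CD74, the invariant chain that guides class II molecules, at 313 ± 42.8 against 1.62 ± 1.09. Every one of these genes was past the limit. HLA-DMA, which helps to load peptides and was named after its values were seen, had 99.4, 123 and 105 TPM in U87 and 24.5, 23.1 and 18.7 in U251, so it was lower in U251 but not near 0. HLA-DRB1 and HLA-DRB5 are close copies that can share reads, so their separate levels are uncertain.

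Promoter sequences of HLA-DRB1, HLA-DQB1 and B2M are shown because class II genes and the class I light chain B2M share promoter letters while their levels in U251 differ. They are RefSeq promoters of GRCh38.p14, from 250 bases before to 50 after the gene start, on the strand of the gene, at chr6:32589799-32590098 (minus strand), chr6:32666608-32666907 (minus strand) and chr15:44711267-44711566 (plus strand). Capitals mark CTGATTGG, the letters of the Y box, and GCAACNGNT, letters found in the X box, each searched on both strands, and the motifs did not overlap.
HLA-DRB1: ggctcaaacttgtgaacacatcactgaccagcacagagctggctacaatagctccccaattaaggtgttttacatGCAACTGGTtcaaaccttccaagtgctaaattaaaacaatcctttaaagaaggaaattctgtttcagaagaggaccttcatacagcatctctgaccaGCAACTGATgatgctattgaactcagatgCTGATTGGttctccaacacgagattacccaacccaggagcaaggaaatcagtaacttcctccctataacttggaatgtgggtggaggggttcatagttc
HLA-DQB1: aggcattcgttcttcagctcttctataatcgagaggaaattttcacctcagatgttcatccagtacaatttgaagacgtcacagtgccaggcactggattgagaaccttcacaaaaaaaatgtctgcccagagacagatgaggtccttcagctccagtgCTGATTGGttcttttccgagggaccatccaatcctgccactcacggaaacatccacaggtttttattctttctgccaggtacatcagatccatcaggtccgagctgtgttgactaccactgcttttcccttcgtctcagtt
B2M: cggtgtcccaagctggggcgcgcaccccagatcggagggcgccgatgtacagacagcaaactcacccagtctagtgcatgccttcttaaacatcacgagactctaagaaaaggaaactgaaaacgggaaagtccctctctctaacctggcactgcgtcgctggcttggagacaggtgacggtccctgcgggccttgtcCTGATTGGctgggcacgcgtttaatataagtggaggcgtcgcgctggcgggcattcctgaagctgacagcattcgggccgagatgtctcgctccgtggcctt

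Y box letters were found in 8 of the 15 antigen presentation promoters read, 4 of 10 of class II genes and CD74 and 4 of 5 of class I genes, B2M and TAP1, and in 3.97% of all 35116 promoters of the table. The X box letters were found in HLA-DRB1, at 2 places, in HLA-DRB5 and in HLA-DOA, in none of the 5 promoters of class I genes, B2M and TAP1, and in 2.26% of all promoters. HLA-DRB1 was near 0 in U251 and HLA-DQB1, named after its values were seen, had 97.2 ± 7.28 TPM in U87 and 0.0966 ± 0.167 in U251, while B2M had 1037, 876 and 930 TPM in U87 and 1720, 1721 and 1646 in U251. A match of letters is a description of the sequence and no site of binding.

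Class I antigen presentation was present in both lines. B2M, TAP1 and TAPBP differed by -0.84, -0.91 and -0.88, HLA-E by -0.70, HLA-B by -0.32 and HLA-C by -0.25, all under the limit. On the TPM scale HLA-F was the one class I gene past it, at 80.0, 58.2 and 51.1 TPM in U87 and 188, 233 and 190 in U251. NLRC5, the class I counterpart of CIITA, had 72.4 ± 15.7 and 59.2 ± 2.85 TPM. In all, 5 of the 15 antigen presentation genes (33.3%) were higher in U87 past the limit, against 10.5% of all genes, and 1 (6.67%) in U251, under the 17.2% of all genes. With quantile normalization 2 were higher in U251.

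The machinery that receives IFN-γ was at comparable levels. None of 6 core signaling genes was past the limit, where 10.5% of all genes were toward U87 and 17.2% toward U251. The receptor chains IFNGR1 and IFNGR2 differed by -0.75 and -0.65, the kinases JAK1 and JAK2 by -0.20 and 0.83, and the transcription factor IRF1 by -0.08. With quantile normalization JAK2 differed by 1.16, and 1 of the 6 genes was past the limit, toward U87. The immunoproteasome subunits PSMB8, PSMB9 and PSMB10 and its activators PSME1 and PSME2 lay between -0.39 and 0.59. Among inhibitors of the pathway SOCS1 was higher in U87, by 2.19 on the log2 scale, with 19.8 TPM in the highest library of U87 and at most 2.84 in U251, whereas SOCS3, USP18, PTPN1 and PTPN2 differed by 0.60, 0.35, 0.06 and 0.01. IDO1, which degrades tryptophan, had 8.12, 8.24 and 7.55 TPM in U251 and 0.239, 0 and 0 in U87. CD274, which encodes PD-L1, stood at 28.7, 46.9 and 28.1 TPM in U87 and 24.8, 38.5 and 24.8 in U251, and the ranges of the lines overlapped. Of the IFN-γ chemokines, CCL2 was compared, with a difference of 0.26, and CXCL9, CXCL10, CXCL11 and CCL5 were under the filter, each listed at 0 in every library of U87 and above 0 in at least 1 library of U251, where the highest value was 1.09 TPM (CXCL11).

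Antiviral genes of the type I interferon response were found on both sides, in shares near those of all genes. Of 33 compared, 4 (12.1%) were higher in U87, against 10.5% of all genes, and 7 (21.2%) in U251, against 17.2%, and the median of the list lay -0.14 from that of all genes. OASL led toward U87 with 59.9 ± 1.95 against 1.96 ± 0.623 TPM, followed by the transcription factor IRF7 (13.2 against 1.37), IFI44L (31.9 against 13.3) and IFI44 (101 against 43.6). IFITM1, which restricts virus entry, led toward U251 with 49.5 ± 15.9 against 5.68 ± 3.15 TPM, followed by BST2 (17.9 against 1.98), MX1 (26.6 against 3.52), IFIT2 (28.4 against 5.01) and ISG20 (29.1 against 8.88).

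Genes of astrocytes and glial precursors separated the lines. Of 26 astrocyte and classical genes, 14 were higher in U251 and 5 in U87, against 17.2% and 10.5% of all genes, with a median of -1.05 relative to all genes. Besides GFAP, S100B, a calcium-binding protein of astrocytes, stood at 174, 179 and 199 TPM in U251 and 2.31, 0.442 and 0.407 in U87. MLC1, a membrane protein of astrocyte endfeet, had 72.6 ± 4.39 TPM in U251 and was listed at 0 in U87, the chaperone CRYAB had 420 ± 35.3 against 11.2 ± 6.40, and the fatty acid carrier FABP7 had 118 ± 4.17 against 4.82 ± 2.07. The opposite was seen for the glycolytic aldolase ALDOC (180 ± 14.6 TPM in U87 against 2.75 ± 1.08), the hedgehog effector GLI2 (21.7 against 0.424), NOTCH3 (53.2 against 3.61), NFIA (3.39 against 0.910) and the gap junction gene GJA1 (179 against 82.0).

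Of 24 proneural genes, 11 (45.8%) were higher in U251 and 4 (16.7%) in U87, against 17.2% and 10.5% of all genes. SOX2 had 159, 158 and 160 TPM in U251 and 0.246, 0.411 and 0 in U87. The receptor PDGFRA had 201, 221 and 217 against 5.68, 4.26 and 3.19. PTPRZ1, a phosphatase of glial precursors, had 177 ± 4.04 against 0.779 ± 0.601 TPM, and the transcription factor SOX4 had 51.6 against 3.52. OLIG2, the factor most used to mark oligodendrocyte precursors, was instead listed at 0 in U251 and had 9.49, 7.06 and 4.94 TPM in U87, and CSPG4 (NG2), a proteoglycan of the same cells, had 65.1 ± 2.03 TPM in U87 against 0.276 ± 0.0261. Proneural genes were thus not all on the side of U251.

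**Figure D2:**
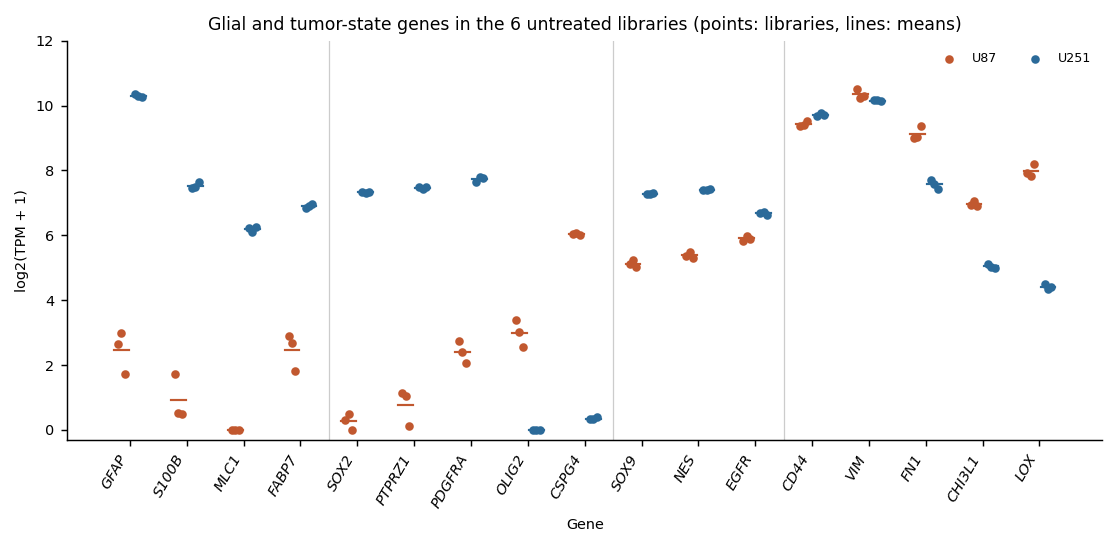
Level of glial and tumor-state genes as log2(TPM + 1) in each of the 6 Untreated libraries, with points for libraries and short lines for means, U87 in orange and U251 in blue. GFAP, S100B, MLC1, FABP7, SOX2, PTPRZ1 and PDGFRA are high in U251, OLIG2, CSPG4, FN1, CHI3L1 and LOX are higher in U87, and CD44 and VIM are high in both.

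Mesenchymal genes were found on both sides. Of 40 compared, 9 (22.5%) were higher in U87, against 10.5% of all genes, and 6 in U251, a share under the 17.2% of all genes, the other 25 were not past the limit, and the median of the list lay 0.18 from that of all genes. LOX, an enzyme that crosslinks collagen, had 239, 226 and 296 TPM in U87 and 21.5, 19.2 and 20.3 in U251. SNAI2 (160 against 41.2), CHI3L1 (124 against 32.3) and FN1 (564 against 190) were also higher in U87. THBS1 (334 against 58.3 TPM), CCN2 (287 against 60.1), CCN1 (339 against 72.5), CEBPD (90.5 against 22.8) and RUNX2 (111 against 32.7) were higher in U251. CD44 and VIM, abundant in mesenchymal cells, differed by -0.29 and 0.19, with 686 ± 40.6 and 840 ± 22.8 TPM for CD44.

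Of 37 stem-cell and patterning factors, 11 (29.7%) were higher in U87 and 10 (27.0%) in U251, against 10.5% and 17.2% of all genes. FOXD1 (100 ± 6.94 TPM), TBX18 (27.6 ± 8.35), EYA1 (19.5 ± 3.52), ZIC2 (19.1 ± 4.26) and the chromatin protein HMGA2 (179 ± 6.29) were on the side of U87, with FOXD1 and TBX18 listed at 0 in U251 and HMGA2 at 11.5 ± 1.92. SOX2, the neural POU factors POU3F2 (66.9 ± 0.891 against 0.255 ± 0.184 TPM) and POU3F3 (19.7 against 0.0380), EN1 (24.7, listed at 0 in U87) and SOX3 (9.54 against 0.0507) were on the side of U251. SOX9 and NES, marks of neural precursors, were present in both lines and higher in U251, with 155 ± 1.57 against 33.9 ± 2.55 TPM for SOX9 and 168 ± 1.72 against 41.0 ± 2.69 for NES.

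HOX genes, which set position along the body axis and are silent in most of the adult forebrain, were transcribed in both lines and mostly higher in U251. Of 39 HOX genes 32 were compared, 20 (62.5%) were higher in U251 and 5 (15.6%) in U87, against 17.2% and 10.5% of all genes, and the median was -1.87 relative to all genes. Summed over a cluster, U251 had 241 ± 13.6 TPM for HOXB, 163 ± 15.3 for HOXC and 273 ± 9.49 for HOXD, against 91.1, 42.9 and 88.5 in U87. HOXA sums were 55.8 ± 12.9 and 35.4 ± 8.84 TPM. HOXD10 (86.6 against 3.87), HOXC10 (a difference of -3.98), HOXB7 (72.1 against 5.03), HOXB9 (23.6 against 0.153) and HOXC13 (20.3 against 0.0440) led toward U251. HOXB2 (45.0 ± 5.54 against 1.54 ± 0.373 TPM) and HOXA4 (19.5 ± 3.29 against 0.746 ± 0.458) led toward U87, so neighbours of the HOXB cluster lay on opposite sides.

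A block of genes on chromosome 9p was listed at or near 0 in U87 and present in U251. It surrounds CDKN2A and CDKN2B, cell-cycle inhibitors that are often deleted in glioblastoma, and MTAP, the methylthioadenosine phosphorylase that is often lost with them. MTAP (chromosome 9, 21802636 to 21941115) had 0.0378, 0.107 and 0.104 TPM in U87 and 86.4, 82.0 and 102 in U251, a difference of -6.39. KLHL9 had 42.6, 41.8 and 40.4 TPM in U251 and DMRTA1 7.71, 6.71 and 5.54, and both were listed at 0 in U87. MLLT3 and FOCAD, neighbours named after their values were seen, had 50.3 ± 5.42 and 44.1 ± 5.72 TPM in U251, with MLLT3 listed at 0 in U87 and FOCAD at 1.52, 0 and 0. These 5 genes lie between 20341669 and 22455740 on the chromosome. CDKN2A itself was at 0, 1.58 and 0 TPM in U87 and 0, 0.586 and 0 in U251, and CDKN2B at or near 0 in both lines, so neither showed the difference of its neighbours. Genes on either side were not all alike. SLC24A2, the next gene before MLLT3, had 4.01, 5.14 and 3.69 TPM in U87 and 0.0389, 0.0225 and 0 in U251. Farther out HAUS6 had 47.0 ± 5.51 TPM in U87 and 47.3 ± 2.17 in U251, and PLAA 75.8 ± 3.54 and 84.3 ± 7.34. Some other genes there were lower in U87, among them DENND4C (13.5 ± 3.61 against 36.8 ± 1.08 TPM), ADAMTSL1 (68.0 against 127), CAAP1 (25.6 against 47.0) and IFT74 (39.2 against 63.6). All of these flanking genes were named after their values were seen. TUSC1, 3.71 Mb from CDKN2A and also named after its values were seen, had 27.5, 33.8 and 24.1 TPM in U87 and was listed at 0 in U251. RNA levels do not show whether DNA is missing, and copy number was not tested.

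**Figure D3:**
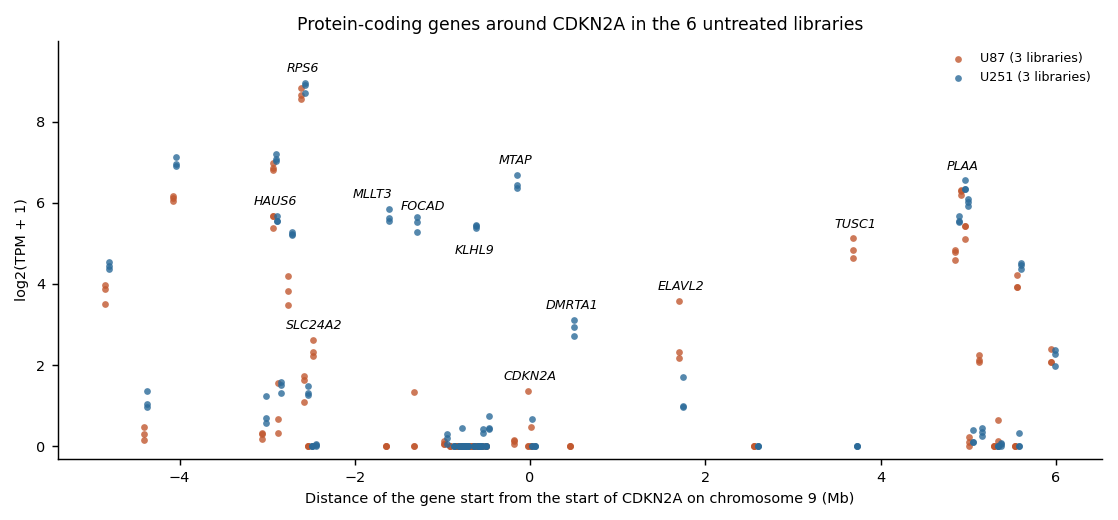
Protein-coding genes within a few megabases of CDKN2A on chromosome 9, placed by the distance of their start from that of CDKN2A in Mb (horizontal) and their level as log2(TPM + 1) in each Untreated library (vertical), U87 in orange and U251 in blue. MLLT3, FOCAD, KLHL9, MTAP and DMRTA1 have high points of U251 and points of U87 at or near 0, apart from 1 library at FOCAD, CDKN2A is low in both lines, and TUSC1 is above 0 in U87 alone.

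Among 22 compared tumor suppressors, cell-cycle drivers and repair genes, 18 were not past the limit. Toward U87 1 (4.55%) and toward U251 3 (13.6%) were past it, against 10.5% and 17.2% of all genes. RB1, NF1 and ATRX differed by -0.60, -0.34 and -0.67, the mismatch repair genes MSH6 and PMS2 by 0.00 and -0.66, and CDK4 by 0.54. MGMT, which removes the alkyl lesions made by temozolomide, had 11.5, 8.29 and 7.18 TPM in U251 and 0, 0.310 and 0 in U87. CDK6 was higher in U251 (60.6 ± 7.48 against 22.0 ± 4.57 TPM) and CCND1, its cyclin partner, in U87 (298 ± 48.8 against 119 ± 5.33). IDH1, IDH2, PIK3CA, PIK3R1, MDM4, MPG, CDKN1B, CCNE1 and TERT were also not past the limit, and CCND2, CDKN2C and TERC were under the filter.

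Of 54 G2/M genes 14 (25.9%) were past the limit toward U87 and none toward U251, with a median of 0.68 relative to all genes. Of 43 S phase genes 4 (9.30%) were past it toward U87, a share near the 10.5% of all genes, and none toward U251, with a median of 0.50, and 7 were with median-ratio size factors. GTSE1 (74.1 ± 1.25 against 24.8 ± 1.60 TPM) and CDCA2 (79.7 ± 1.62 against 28.4 ± 2.37) led the G2/M genes and CDC45 (105 ± 9.50 against 44.8 ± 5.41) the S phase genes. No member of either list exceeded 1.55. Cytosolic ribosomal proteins, with 1 of 79 genes past the limit (RPS26, not past it with quantile normalization), and subunits of the respiratory chain, with 0 of 79, had medians of 0.37 and 0.42 on the same scale. Before subtraction of the median of all genes these were 0.24 and 0.29, and with quantile normalization 0.04 and 0.19. Of 29 common reference genes, 28 were under the limit, and GUSB was higher in U251 with 182 ± 12.3 against 68.2 ± 9.61 TPM.

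**Figure D4:**
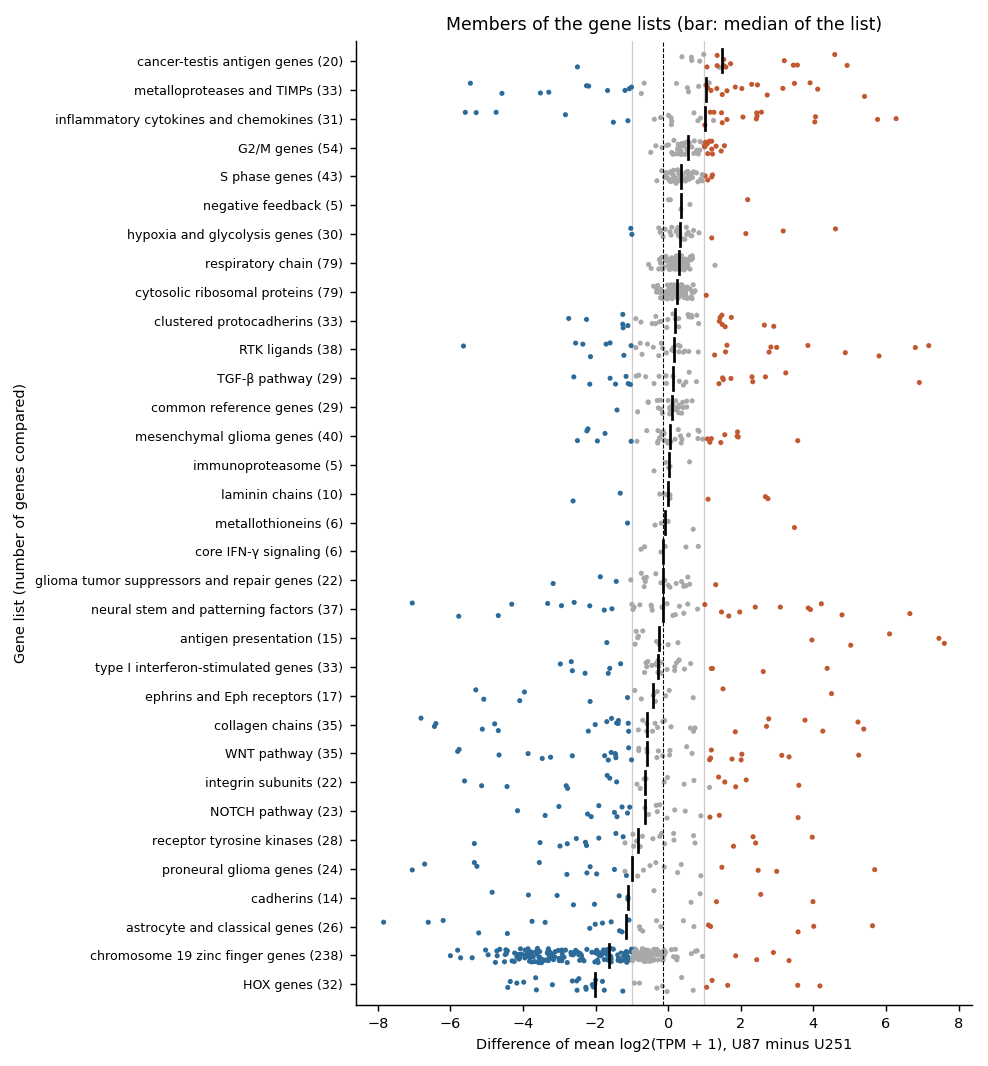
Each row is a gene list of at least 5 compared genes and each point a member, placed by its difference of mean log2(TPM + 1), U87 minus U251, with orange and blue for genes past the limit toward U87 and U251, a black bar at the median of the list, a dashed line at the median of all genes and grey lines at 1 and -1. HOX and chromosome 19 zinc finger genes lie mostly to the left, metalloprotease and cytokine genes have medians to the right, and ribosomal, respiratory chain and reference genes stay near the centre.

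Of 28 receptor tyrosine kinases, which receive growth factors, 10 (35.7%) were higher in U251, against 17.2% of all genes, and 4 (14.3%) in U87, near the 10.5% of all genes. PDGFRA, FGFR3 (13.5 against 0.248 TPM), MERTK (8.13 against 0.144), ERBB2 (76.8 against 10.6) and IGF1R (59.1 against 9.46) were on the side of U251. The macrophage growth factor receptor CSF1R (a difference of 3.97), FGFR1 (167 ± 10.3 against 30.9 ± 7.56), PDGFRB (47.3 ± 7.68 against 8.48 ± 0.235) and TEK (3.46 against 0.276) were on the side of U87, so that the PDGF receptors alpha and beta went opposite ways. EGFR was under the limit at 58.9 ± 3.41 and 101 ± 3.86 TPM. Of 38 ligands, 11 (28.9%) were higher in U87 and 8 (21.1%) in U251, the latter near the share of all genes. HGF, EREG, ANGPTL4 (139 against 1.54 TPM), GDNF (30.7 against 0.0542) and ARTN (23.5 against 0.706) led toward U87. PDGFD (53.4 ± 1.59 against 0.0939 ± 0.0219), FGF12 (103 against 17.0), EGF (49.9 against 9.72), PDGFB (3.58, listed at 0 in U87) and MDK (97.4 against 29.7) led toward U251. Among ephrins and their receptors, 6 of 17 (35.3%) were higher in U251, with EFNA1 at 46.5 ± 1.76 against 0.220 ± 0.191 TPM and EPHA3 at 124 ± 1.67 against 7.06 ± 0.870, and 2 (11.8%, near the share of all genes) in U87, with EFNA5 at 33.1 ± 8.01 against 0.518 ± 0.385.

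Of 35 collagen chains of the extracellular matrix, 15 (42.9%) were higher in U251 and 7 in U87, against 17.2% and 10.5% of all genes. The fibrillar chain COL1A1 had 268, 269 and 306 TPM in U87 and 7.31, 4.09 and 8.98 in U251, and COL6A3 had 396 ± 43.8 against 8.79 ± 3.11. COL1A2, the partner chain of COL1A1, was under the limit in the other direction, at 215 ± 20.5 and 324 ± 8.66 TPM. COL11A1 (238 ± 9.86 against 2.15 ± 1.80), COL14A1 (125 against 0.126), COL18A1 (144 against 0.695) and the basement membrane chain COL4A1 (47.4 ± 0.475 against 0.424 ± 0.390) were on the side of U251. Of 10 laminin chains 3 were higher in U87, led by LAMA1 (10.5 against 0.812 TPM), and 2, a share near the 17.2% of all genes, in U251, LAMA4 (295 ± 3.66 against 47.7 ± 8.49) and LAMB2 (355 against 142). LAMB1 and LAMC1, the chains common to many laminins, differed by -0.04 and -0.12.

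Of the lists of matrix genes, that of metalloproteases and their TIMP inhibitors had the largest share toward U87, 16 of 33 (48.5%), and 10 (30.3%) were toward U251, where all genes had 10.5% and 17.2%. The inhibitors TIMP3 (a difference of 1.18) and TIMP2 (-1.07) are among these, on the sides of U87 and U251, and TIMP1 and TIMP4 were not past the limit (the TIMPs were named after their values were seen). The stromelysin MMP3 had 79.9, 72.4 and 79.2 TPM in U87 and 1.33, 0.735 and 0.530 in U251, and the collagenase MMP1, its neighbour on chromosome 11, had 20.4 ± 4.13 against 0.426 ± 0.267. ADAMTS1 (79.3 against 3.64 TPM), MMP19 (22.1 against 1.05) and ADAMTS5 (9.49 against 0.163) followed. MMP7 (70.8 ± 5.46 against 2.00 ± 0.174), ADAMTS15 (47.1 against 0.102), ADAMTS7 (101 against 7.88), ADAMTS10 (9.34, listed at 0 in U87) and MMP15 (22.9 against 4.02) were on the side of U251.

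Integrins and cadherins anchor cells to the matrix and to each other. Of 22 integrin subunits, 8 (36.4%) were higher in U251, against 17.2% of all genes, among them ITGA9 (48.3 against 0.00619 TPM), the laminin receptor chains ITGB4 (207 ± 20.7 against 5.01 ± 1.59) and ITGA6 (82.7 against 11.4), and ITGB8 (95.7 against 3.45). The 5 (22.7%, against 10.5% of all genes) higher in U87 were ITGAX (17.1 against 0.502 TPM), ITGA2 (93.1 against 20.1), ITGA1 (18.7 against 4.40), the fibronectin receptor chain ITGA5 (a difference of 1.56) and ITGA10 (3.18 against 0.656). Of 14 cadherins, 8 (57.1%) were higher in U251, led by CDH6 (28.7 against 0.0240 TPM) and including CDH11 (367 ± 14.3 against 43.1 ± 3.31), and 3 (21.4%) in U87, led by CDH7 (15.8 against 0.0539). Of 33 clustered protocadherins 8 (24.2%) were higher in U87 and 6 (18.2%, near the share of all genes) in U251, or 10 and 2 with quantile normalization, and reads of their close copies can be shared.

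Inflammatory cytokines and chemokines were higher in U87 for 15 of 31 genes (48.4%, against 10.5% of all genes) and in U251 for 6 (19.4%, near the 17.2% of all genes), with a median of 1.15 relative to all genes. Of the 34 genes of the list, 11 had a mean under 1 TPM in U251 and 6 in U87. Some members thus passed the filter through U87, which adds to the count on its side. IL1B had 205, 224 and 212 TPM in U87 and 2.83, 5.06 and 1.63 in U251. The granulocyte growth factor CSF3 had 93.2 ± 13.7 against 0.218 ± 0.225 TPM, the B-cell factor TNFSF13B 36.3 ± 11.6 against 1.23 ± 0.653, the prostaglandin synthase PTGS2 18.6 against 0.201, and IL1A 13.6 against 1.48. The chemokine CX3CL1 (55.1 ± 4.08 against 0.163 ± 0.123), the adhesion molecule VCAM1 (57.6 ± 1.33 against 0.547 ± 0.496), the death ligand TNFSF10 (47.2 against 0.814), IL32 (40.6 against 4.87) and CCL26 (29.2 against 9.83) were higher in U251.

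In the WNT pathway 15 of 35 genes (42.9%) were higher in U251 and 9 (25.7%) in U87, against 17.2% and 10.5% of all genes. The ligands WNT7B (145 ± 2.74 against 2.88 ± 0.587 TPM) and WNT5A (162 ± 10.8 against 15.6 ± 4.93) were on the side of U87, and the coreceptor LRP5 (95.8 ± 4.35 against 0.774 ± 0.440) and the secreted inhibitors DKK1 (391 ± 31.1 against 15.2 ± 5.89), SFRP1 (72.3 against 0.360) and SFRP4 (28.2 against 1.04) on that of U251. Ligands and secreted inhibitors were each found on both sides. The secreted inhibitor SFRP2 (8.16 ± 1.52 against 0.0399 ± 0.0692 TPM) was higher in U87. The ligands WNT10A (a difference of -1.65) and WNT3 (-1.45), named after their values were seen, were higher in U251. The frizzled receptors past the limit, also looked at after their values were seen, were all on the side of U251. In the NOTCH pathway 11 of 23 (47.8%) were higher in U251, among them the targets HES1 (74.3 ± 6.72 against 6.16 ± 0.485 TPM), HES4 (28.1 against 0.699) and HEY1 (55.4 against 6.03), and 3, near the share of all genes, in U87, the receptor NOTCH3 and the glycosyltransferases LFNG and MFNG. In the TGF-β pathway 9 of 29 (31.0%) were higher in U87, led by GREM1 and LTBP2 (35.8 against 2.95 TPM), and 7 (24.1%) in U251, led by CHRD (5.44 against 0.0636) and BMPR1B (31.7 against 6.63).

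Most hypoxia and glycolysis genes were not past the limit, as held for most of all genes, and some differed markedly. LDHA, the lactate dehydrogenase chain that turns pyruvate into lactate, had 1545, 1192 and 1386 TPM in U87 and 52.1, 61.7 and 52.2 in U251, a ratio of the means of 24.8. The hexokinase HK2 (124 ± 8.34 against 27.4 ± 1.77), the carbonic anhydrase CA12 (205 ± 27.9 against 22.0 ± 3.27) and P4HA2 (331 against 143) were also higher in U87. EGLN3 (86.2 against 41.6) and PFKFB3 (183 against 91.0) were higher in U251, neither past the limit with median-ratio size factors. Of the 30 hypoxia and glycolysis genes, 4 (13.3%, near the 10.5% of all genes) were higher in U87 and 2 (6.67%, under the 17.2% of all genes) in U251. The other 24 were not past the limit. The median of the list was 0.45 relative to all genes, and 23 members had a positive difference. The glycolytic enzymes ENO1, PKM, GPI and GAPDH differed by -0.26, -0.22, -0.20 and 0.51. MIF, a cytokine named after its values were seen, had 386, 369 and 423 TPM in U87 and 3.47 ± 2.22 in U251. Of 6 metallothioneins, MT1M was higher in U87 (23.4 ± 8.62 against 1.37 ± 1.22 TPM) and MT3 in U251 (116 ± 5.75 against 53.5 ± 9.83), the latter not past the limit with median-ratio size factors.

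Cancer-testis genes, which are normally limited to germ cells, were under the filter for all but 20 of 77. Of the 77, 74 had a mean under 1 TPM in U251 and 59 in U87, so that members passed the filter mostly through U87, and nothing is read from the 13 that were then higher in U87 and the 1 in U251. MAGEA1 had 27.0, 28.0 and 22.2 TPM in U87 and 0.144, 0 and 0.190 in U251. CT45A10 (29.8 ± 4.71 TPM), MAGEC2 (a difference of 3.56) and SSX1 (10.1 ± 2.35) were listed at 0 in U251, and MAGEA12 was higher in U251 (a difference of -2.50). These families hold near-identical copies, and the split of reads between them is uncertain.

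Zinc finger genes of chromosome 19, a list made after its values were seen, encode KRAB zinc finger proteins in many cases, and many of these silence transposable elements. Of 238 compared, 150 (63.0%) were higher in U251 and 4 in U87, with a median difference of -1.62, this and the next 2 medians being plain differences, not relative to all genes. Other protein-coding genes of the same chromosome were higher in U251 for 121 of 818 (14.8%) and in U87 for 87, with a median of 0.01. Zinc finger genes of other chromosomes were higher in U251 for 84 of 247 (34.0%) and in U87 for 11, with a median of -0.70. ZNF880 had 64.1, 67.7 and 61.8 TPM in U251 and 0, 0 and 0.0711 in U87, ZNF83 had 78.0 ± 0.770 against 0.503 ± 0.126, and ZNF91 47.3 ± 5.68 against 0.482 ± 0.205. The 4 higher in U87 were ZNF175 (127 ± 12.3 against 34.4 ± 6.02 TPM), ZNF233, ZNF329 and ZNF541. A mean under 1 TPM was found for 70 of the 238 in U87 and for 6 in U251. TRIM28, the corepressor of KRAB proteins and also named after its values were seen, had 623 ± 79.8 and 509 ± 44.1 TPM. Reads can be shared between members of the family.

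Some of the zinc finger genes that were low in U87 lay side by side. Runs of at least 3 neighbouring protein-coding genes with means under 1 TPM in a line, among genes with at least 5 TPM in either line, numbered 11 in U87, of which 8, with 40 genes, were on chromosome 19, and 6 in U251. The longest held 10 genes, from ZNF529 to ZNF585A at 36543613 to 37172695, with at most 0.816 TPM in U87 and 9.44 to 28.9 in U251. Another of 7 genes ran from ZNF808 to ZNF468 at 52527668 to 52857619, with 18.6 to 78.0 TPM in U251. In U251 the longest run was that of HLA-DRA, HLA-DRB5, HLA-DRB1, HLA-DQA1 and HLA-DQB1, and the run of 5 on chromosome 9 in U87 is the block around MTAP.

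Wider stretches of chromosomes leaned one way. In windows of 10 Mb with at least 20 compared protein-coding genes, zinc finger genes left out, 13 of 243 had a median at or below -0.5 relative to all protein-coding genes and 17 at or above 0.5. The lowest, -1.20, was at 70 to 80 Mb of chromosome 6, where 0 of 23 genes had a positive difference and 16 were higher in U251 past the limit, among them HMGN3 (151 ± 1.28 against 30.1 ± 3.17 TPM) and SENP6 (94.9 ± 4.51 against 45.9 ± 3.99, not past the limit with quantile normalization), named after their values were seen. Chromosome 6 as a whole had 203 of 736 protein-coding genes (27.6%) higher in U251 and 64 (8.70%) higher in U87, against 17.2% of all protein-coding genes higher in U251. Chromosome 20 had 22.2% and chromosome 19 25.7% with its zinc finger genes included, or 14.8% of its 818 other genes without them. The windows at 80 to 90 Mb of chromosome 1 (-1.06) and 110 to 120 Mb of chromosome 11 (-0.76) followed, and the highest was at 20 to 30 Mb of chromosome 12 (0.78), where 30 of 37 genes had a positive difference.

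Markers of other cell types were looked at because a culture can hold other cells and lines can be mixed up. Of 15 leukocyte markers, 4 were compared, and PTPRC, CD3D, CD3E, CD14, MS4A1, AIF1, TYROBP, LYZ and NKG7 each had a mean under 0.6 TPM in both lines. The summed level of the list was 367 to 441 TPM in U87 and 141 to 151 in U251, most of it from CD68 (342 ± 33.0 and 140 ± 4.53), a lysosomal gene of many cells. Of the 4 compared markers 3 were higher in U87 past the limit, CD68, CSF1R (a difference of 3.97) and FCER1G (5.80 ± 2.10 against 0.830 ± 0.121 TPM), and none in U251, where 10.5% and 17.2% of all genes were, with a list median of 1.70 relative to all genes. The part of leukocyte genes in the class II result was not tested. Fibroblast and muscle markers summed to 813 to 888 TPM in U87 and 744 to 793 in U251, with COL1A1 the largest in U87 and THY1 in U251. Of 11 compared, 7 were higher in U87 past the limit, among them MYL9, COL1A1, LUM (19.2 ± 2.00 TPM, listed at 0 in U251) and DCN (7.19 ± 2.29 against 0.0332 ± 0.0575), and 1 in U251, THY1 (365 ± 14.9 against 3.28 ± 1.09), against the same shares of all genes, with a list median of 1.63 relative to all genes. The part of fibroblast and muscle genes in the matrix results was not tested. FCER1G, LUM and DCN were named after their values were seen. Neuronal markers summed to 564 to 653 and 369 to 406 TPM, led in both by ENO2, epithelial markers to 49.4 to 76.7 and 143 to 155, led in both by KRT8, endothelial markers to 8.18 to 12.7 and 32.4 to 42.7, and erythroid and liver markers to 33.5 to 48.2 and 64.4 to 75.5, led in both by SERPINA1. The hemoglobin genes HBA1, HBA2, HBB and HBG1 were listed at 0 in all 6 libraries. Olfactory receptor genes, taken as silent genes, summed to 18.9 to 34.0 TPM in U87 and 27.7 to 48.2 in U251.

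The differences were then followed in libraries that the comparison had not used, with the lines set against each other under the same exposure to IFN-γ. These libraries come from the same tables, so this does not separate line from table. U87 had 2 libraries at D3 and at D14 and 3 in the other groups, which changes how easily libraries fail to overlap. Of the 2310 genes higher in untreated U87, 1629 were past the limit in the same direction after 3 days of IFN-γ, 1643 after 14, 1400 after 28 and 1686 with IFN-γ removed, and 1138 (49.3%) in all 4 groups. Of the 3791 higher in untreated U251, 2062, 2326, 2093 and 1862 were, and 1295 (34.2%) in all 4. Over all 22045 genes, those higher in U87 past the limit made up 11.9%, 10.8%, 9.50% and 13.6% in these groups, and those higher in U251 13.7%, 14.1%, 14.2% and 10.5%. A turn past the limit to the other line was rare, with 6 to 31 genes from U87 and 14 to 52 from U251 per group.

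Class II genes of U251 were much nearer to those of U87 in the treated groups, least so at D14. By group means, HLA-DRA of U251 stood at 0 TPM in the Untreated group and at 244 (D3), 49.6 (D14), 303 (D28) and 183 (D28WO) in the treated groups, while U87 had 321, 182, 396 and 315, and CIITA of U251 had 130, 7.48, 131 and 102 TPM against 154, 50.3, 174 and 192. At D14 the U87 values of HLA-DRA (171 to 192 TPM) reached into the range of its Untreated libraries (183 to 219). HLA-DQA1 remained apart, with 7.33, 0.182, 34.1 and 1.42 TPM in U251 against 46.9 to 271 in U87. Of the 5 antigen presentation genes higher in untreated U87, 1 was past the limit in all 4 treated groups, and this was HLA-DQA1. SOCS1 of U251 had 35.8, 9.18, 45.8 and 65.7 TPM against 31.5, 18.5, 32.8 and 31.9 in U87, and OASL 93.8, 56.6, 128 and 126 against 91.6, 54.4, 85.5 and 74.1. IFI44L, higher in untreated U87, was past the limit toward U251 in every treated group, with 222, 204, 227 and 266 TPM in U251 against 69.0, 48.5, 73.9 and 91.0. IDO1 stayed higher in U251, with 346, 45.1, 401 and 302 TPM against 83.6, 0, 111 and 136.

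Some genes of identity and of the chromosome blocks were past the limit in every treated group and others were not. Of the genes higher in untreated U251, 9 of 14 astrocyte and classical genes and 7 of 11 proneural genes were past it in all 4 groups, and of those higher in untreated U87 4 of 5 and 2 of 4 were, where over all genes 34.2% of those higher in U251 and 49.3% of those higher in U87 were. SOX2 had 116 to 173 TPM in U251 by group means and at most 0.210 in U87, MTAP 58.2 to 76.7 against at most 0.566, and MGMT 5.47 to 8.56 against at most 0.0183. LDHA had 581 to 1168 TPM in the treated groups of U87 and 41.1 to 51.9 in those of U251. GFAP remained past the limit in all 4 groups with 342, 713, 243 and 573 TPM in U251 and 11.5, 7.46, 14.2 and 14.2 in U87, so the level in U251 was lower in each treated group than in the Untreated libraries. Of 20 HOX genes higher in U251, 16 were past the limit in all 4 groups, of the 16 metalloproteases and TIMPs higher in U87 11 were and of the 10 higher in U251 2 were, and of 150 chromosome 19 zinc finger genes 115 were. None of the 14 G2/M genes and none of the 4 S phase genes past the limit toward U87 remained so in all 4 groups. MMP7 had 70.8 TPM in untreated U251 and 2.31, 7.47, 8.32 and 8.81 in its treated groups, and RUNX2 (30.5 to 72.5) was past the limit in none of them.

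**Figure D5:**
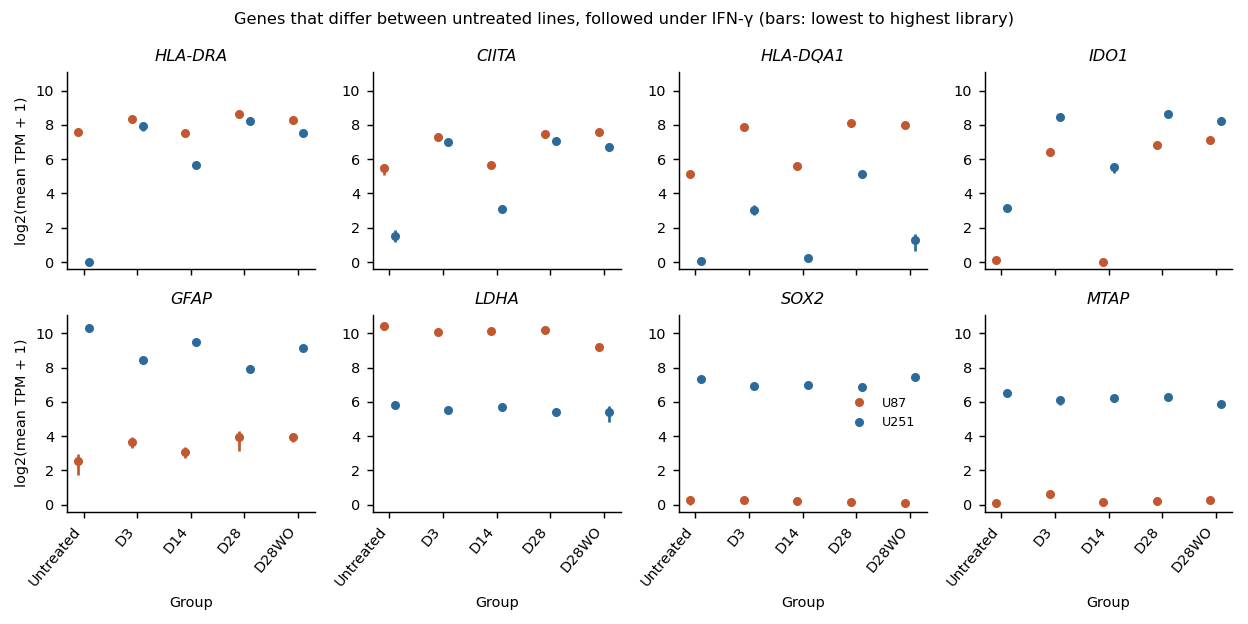
Level of 8 genes as log2(mean TPM + 1) in the Untreated group and the 4 treated groups of U87 (orange) and U251 (blue), with points for means and bars from the lowest to the highest library (2 libraries for U87 at D3 and D14, otherwise 3). HLA-DRA and CIITA of U251 are near 0 or low without IFN-γ and close to U87 at D3 and D28, whereas LDHA, SOX2 and MTAP stay apart in every group.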

How the data were processed

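RNA was sequenced (TruSeq RNA kit, Illumina sequencer per the labels) from Untreated flasks. The authors deposited 1 table of TPM values per line, made with FastQC, Trim Galore, STAR, featureCounts and edgeR on GRCh38 per the labels, and how TPM was computed and whether strand was used are not given in the sources used here, so overlapping genes cannot be told apart. A supplementary sheet of the study calls the matrices CPM, but the columns sum to 1000000 and are labelled TPM. 2 columns of the U87 table share a name, could not be assigned and were not used.

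Values were taken as log2(TPM + 1) in Python 3.11.15 (pandas 2.3.3, numpy 2.4.6). No test was run between separately normalized tables. The comparison and the 44 gene lists were chosen with earlier results of these data known. Rule lists hold protein-coding genes only. Named genes are the 15 largest differences of each line, all members of lists taken from the study, of the 9p21 and of the tumor suppressor list, and up to 5 members in each direction of other lists. Y-linked genes were not named, and some members of these lists are not reported here. Of the compared genes, 17587 matched RefSeq symbols (GRCh38.p14).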

Additional observations from a re-analysis of the deposited data

How the results depend on the processing

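No paired analysis was possible because the comparison of the lines comes from no test and the replicate numbers of separate cultures of separate lines do not pair them. The counts of genes higher in U87 and in U251 were 5682 and 7620 with no overlap of libraries as the sole criterion, 1044 and 1447 with a limit of 2, 3498 and 3595 by within-library ranks (at least 10 percentile points), and 1568 and 2499 with protein-coding genes only, rescaled to the same total. The number of lists with a median at least 0.5 from that of all genes, 14 of 36, was 7 with no filter, where the cadherins turned from -0.97 to 0.02. Pseudocount 0.1, a filter at 1 TPM, quantile normalization, median-ratio size factors and background subtraction kept both counts within 1.5 times. Leaving out 1 library in turn gave 2292 to 2650 genes toward U87, 3610 to 4263 toward U251, a median of -0.180 to -0.087 and 14 to 17 lists. Genes followed from U251 that were past the limit numbered 2062 at D3, 2326 at D14 and 2093 at D28, each taken alone, against 1295 in all 4 groups. Of 440 named genes past the limit, 25 lost the call with quantile normalization, 10 with size factors and 3 to 9 without 1 library, where NFIA fell under it without U87 replicate 1, MFNG without U87 replicate 1 or U251 replicate 1, and PFKFB3 without U87 replicate 2 or U251 replicate 3, and none changed sign under these alternatives. Depth is unknown, so low levels have no stated precision.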
